A study of Homo sapiens with 16 samples.

Results

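The genes of cholesterol and fatty acid synthesis that answer to the SREBP transcription factors were followed through 16 arrays of a pancreatic cancer line treated with an mTOR kinase inhibitor. The set lists 36 genes by name: 18 enzymes of the sterol branch, 6 regulators and transport proteins, and 12 enzymes of fatty acid supply, synthesis, elongation and desaturation. Each gene was represented by the probe set that names it alone and has the highest mean over the 16 arrays, which gave 32 measured genes out of 19777 on the array. The 32 were 16 sterol enzymes, all 6 regulators and transport proteins, and 10 fatty acid enzymes. CYP51A1, FADS1 and ELOVL1 lie only on probe sets that list several genes and FDFT1 on none in the gene table used, so these 4 genes are not analysed here. The cells were MIA PaCa-2, an established human pancreatic carcinoma line. They were kept for 12 hours with 2.5 µM PP242, which blocks the ATP site of the mTOR kinase in both of its complexes, or with DMSO as vehicle. From each treatment 2 RNA pools were hybridised to Affymetrix 3′ arrays. Cytosolic RNA is the total cytoplasmic pool, and polysome RNA is the part that carried more than 3 ribosomes in a 10% to 50% sucrose gradient. The 4 groups, cytosolic vehicle, cytosolic PP242, polysome vehicle and polysome PP242, held 4 arrays each. A single line, dose and time were used, and the labels do not say whether the 4 replicates are separate cultures, so the p-values measure only the spread between these samples.

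SREBP-1 and SREBP-2, encoded by SREBF1 and SREBF2, are made as membrane proteins of the endoplasmic reticulum, where SCAP holds them and INSIG1 or INSIG2 retains the complex while sterols are plentiful. When sterols fall, SCAP carries the precursors to the Golgi, proteases release the transcription factor domain, and that domain turns on the genes of sterol and fatty acid synthesis and INSIG1. In many cell types mTOR complex 1 is known to promote this processing, and growing tumour cells draw on the pathway for membrane lipid and for the isoprenoids that anchor small GTPases.

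Values are log2 signals after RMA, the multi-array summary for Affymetrix probe sets, so a difference is the log2 of a fold change, and a level can be compared between groups for 1 gene but not between genes. The 4 keratin and vimentin markers of the line were high in all groups, with list means between 11.84 and 13.42, and 2 of the 4 were called in polysome RNA and 3 in cytosolic RNA. List means of leukocyte, endothelial, normal pancreas, hepatocyte and adipocyte markers lay between 3.24 and 5.43, with 0 genes called. Of 6 fibroblast genes 2 were called in each pool. The list mean ran from 6.62 to 6.83 in cytosolic vehicle, 6.33 to 6.53 in cytosolic PP242, 6.74 to 6.96 in polysome vehicle and 6.42 to 6.61 in polysome PP242. LUM stayed at group means of 3.24 to 3.32 and DCN at 5.13 to 5.26, while COL1A2 was at 10.96 to 12.21. Their part in the lipid gene results was not tested. The cytosolic PP242 arrays were the least uniform, with a median gene SD of 0.245 against 0.122 to 0.159 in the other groups. Numbers 2 and 4 of them had the lowest array weights, 0.360 and 0.252, and cytosolic values without them are given where this changes a call or moves a called value by more than 1.5 times.

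PP242 lowered part of the pathway in both pools. On polysomes 13 of 32 genes passed the test (limma, Benjamini-Hochberg adjusted p under 0.05 over all genes), 12 lower and 1 higher, against 13.4% of all genes, 6.55% lower and 6.81% higher. In cytosolic RNA 13 of 32 passed as well, again 12 lower and 1 higher, against 16.4% of all genes, 7.91% lower and 8.54% higher. A block for replicate number let 14 of the 32 pass on polysomes and 15 in the cytosol, against 20.3% and 24.9% of all genes. Most of the 32 are bright, and bright genes were called more often. Of the 10809 genes with a group mean above the median signal, fitted alone, 26.6% were called on polysomes. They hold 30 of the 32, of which 13 were lower and 1 higher (46.7%). Called lower in both pools were 10 genes: ACAT2, HMGCS1, IDI1, FDPS, LSS, MSMO1 and DHCR7 of sterol synthesis, the regulator INSIG1, and ELOVL5 and ME1 of the fatty acid branch. EBP and FADS2 were called lower on polysomes and not in the cytosol, and ACLY and SCD the other way round. SCAP was called higher in both. The other 17 were called in neither pool: MVK, PMVK, MVD, SQLE, TM7SF2, NSDHL, HSD17B7, SC5D, INSIG2, STARD4, SREBF1, SREBF2, ACSS2, ACACA, ACACB, FASN and ELOVL6. The median difference of the 32 was -0.25 on polysomes and -0.22 in the cytosol, beside -0.01 and 0.04 over all genes. Polysome groups did not overlap for 16 genes that were lower and 2 that were higher with PP242, where 9.85% and 9.48% of all genes did so. In the cytosol 11 were lower without overlap and 1 higher, against 8.34% and 9.34%.

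**Figure D1:**
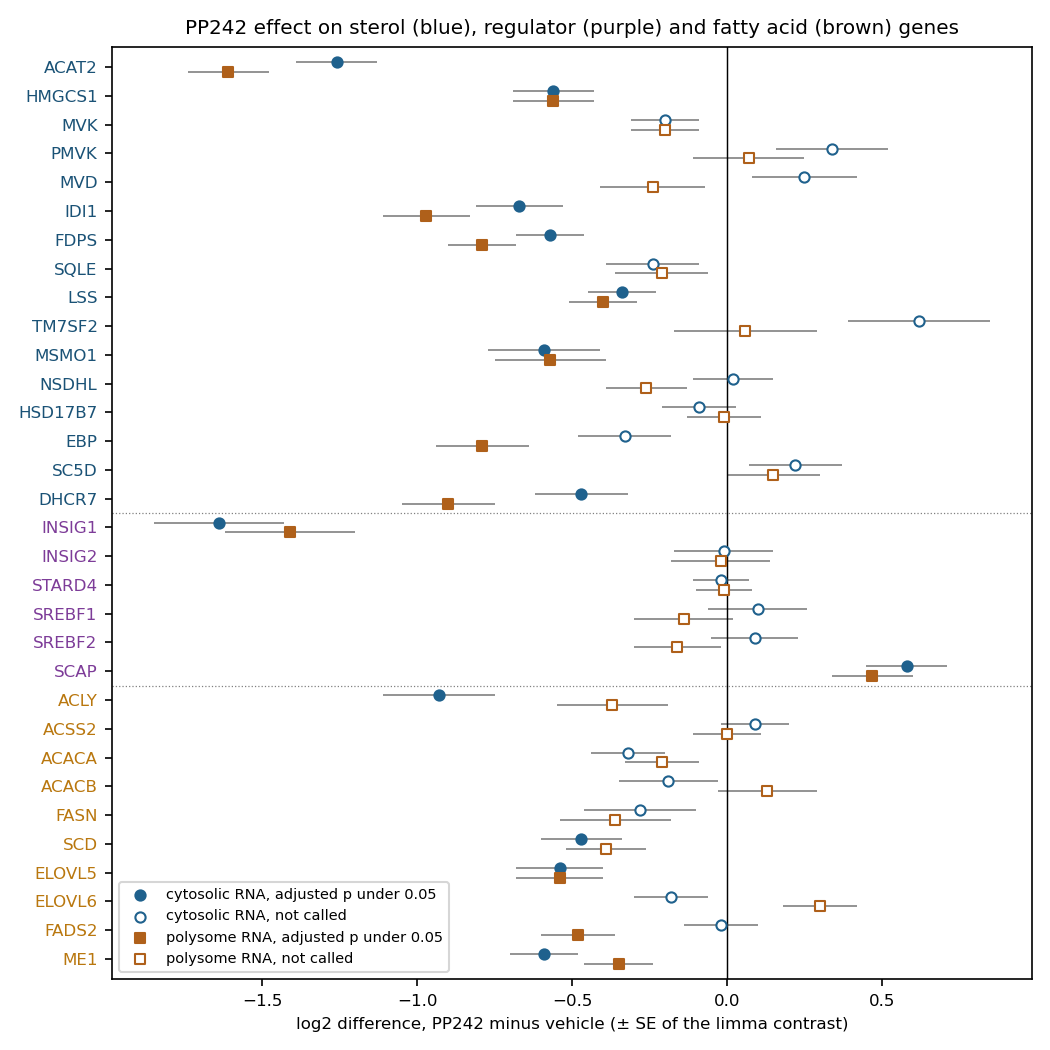
PP242 minus vehicle on the log2 scale for the 32 genes, with circles for cytosolic RNA and squares for polysome RNA, bars for the SE of the limma contrast (4 arrays per group), and filled marks for an adjusted p under 0.05. ACAT2 and INSIG1 lie farthest to the left in both pools, SCAP is the only filled mark to the right of 0, and INSIG2, STARD4 and HSD17B7 lie close to 0.

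The samples carry replicate numbers, and the counts were also taken within numbers 1 and 2 and within numbers 3 and 4. These runs, and those that left out a number or arrays, had no block for number. With all arrays in, the block ended no call of the 32 genes. In numbers 1 and 2 alone 8 genes were called on polysomes (10.1% of all genes) and 10 in the cytosol (12.4%). In numbers 3 and 4 alone 4 were called on polysomes (5.49%), namely ACAT2, IDI1, DHCR7 and INSIG1, and 3 in the cytosol (5.35%), namely ACAT2, INSIG1 and SCD. Without cytosolic PP242 arrays 2 and 4, 10 genes were called in the cytosol, all lower, against 9.99% of all genes. Leaving out 1 replicate number at a time kept 7 of the 13 polysome calls in all 4 runs (ACAT2, HMGCS1, IDI1, FDPS, EBP, DHCR7, INSIG1) and 6 of the 13 cytosolic calls (ACAT2, IDI1, FDPS, INSIG1, ACLY, ME1). Counts over the list fell to 8 on polysomes and to 7 in the cytosol without replicate 2, and the shares of all genes called fell as well, to 8.22% and 7.8%. ACAT2 and INSIG1 were the genes called in both pools under every alternative run, 16 on polysomes and 17 in the cytosol.

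Other settings moved single calls. With only the 8 arrays of a comparison fitted, 16 of the 32 were called on polysomes (15.7% of all genes) and 9 in the cytosol (10.5%). ACLY (adjusted p = 0.0147), FASN (0.0456) and SCD (0.0227) were then added on polysomes, and LSS (0.0938), MSMO1 (0.0938), DHCR7 (0.127) and SCD (0.0607) lost their cytosolic calls. Array weights added ACLY (0.0251) and SCD (0.0295) on polysomes and EBP (0.0278) in the cytosol, and ended the cytosolic calls of MSMO1 (0.134) and SCD (0.107). Cyclic loess ended those of SCD (0.0502) and ELOVL5 (0.0523), and quantile normalization added TM7SF2 there (0.0375). Averaging a gene's probe sets ended the polysome calls of IDI1, LSS, ELOVL5 and ME1 and added NSDHL and ACLY. Cytosolic calls ended by the average were those of HMGCS1, IDI1, LSS, SCD and ELOVL5, and EBP and ACACA were added. The second probe set ended the polysome calls of HMGCS1, LSS, ELOVL5 and ME1 and added MVK, NSDHL and ACLY. Cytosolic calls ended by the second probe set were those of HMGCS1, LSS, ACLY, SCD and ELOVL5, and SQLE and EBP were added.

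The promoters of these genes are where SREBP and its partner NF-Y, a factor that binds CCAAT boxes, are known to act, so their sequences are shown for genes that fell and for 2 regulators that did not pass. RefSeq promoter windows (GRCh38.p14, 250 bases before to 50 after a start site) were found for 29 of the 32 genes. Each was searched on both strands for CCAAT, for the E-box CACGTG, and for TCACNCCAC, a strict form of the sterol regulatory element. None of the 3 motifs contains another. In the stretches below, all upstream of the start and read 5′ to 3′ on the gene's strand, capitals mark a match, and ATTGG is CCAAT read on the other strand.
FDPS (chr1:155308681-155308830, plus strand): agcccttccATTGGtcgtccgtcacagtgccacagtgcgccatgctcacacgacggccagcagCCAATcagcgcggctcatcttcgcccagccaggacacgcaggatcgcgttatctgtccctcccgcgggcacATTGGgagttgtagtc
MSMO1 (chr4:165327479-165327643, plus strand): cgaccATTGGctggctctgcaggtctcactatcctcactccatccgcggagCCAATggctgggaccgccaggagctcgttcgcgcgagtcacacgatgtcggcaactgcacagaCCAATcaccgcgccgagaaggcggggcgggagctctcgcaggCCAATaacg
EBP (chrX:48521728-48521787, plus strand): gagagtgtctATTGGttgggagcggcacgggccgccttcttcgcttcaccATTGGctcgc
HMGCS1 (chr5:43313503-43313577, minus strand): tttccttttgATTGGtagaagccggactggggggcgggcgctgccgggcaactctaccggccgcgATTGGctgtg
SCD (chr10:100346993-100347062, plus strand): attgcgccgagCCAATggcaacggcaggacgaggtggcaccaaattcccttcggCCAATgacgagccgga
INSIG1 (chr7:155297698-155297847, plus strand): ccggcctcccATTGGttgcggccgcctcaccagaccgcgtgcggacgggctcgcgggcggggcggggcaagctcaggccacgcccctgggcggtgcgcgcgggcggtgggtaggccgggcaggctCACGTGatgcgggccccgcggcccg
INSIG2 (chr2:118088371-118088440, plus strand): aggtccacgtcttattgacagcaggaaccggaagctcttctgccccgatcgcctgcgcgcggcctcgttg
SREBF2 (chr22:41832955-41833014, plus strand): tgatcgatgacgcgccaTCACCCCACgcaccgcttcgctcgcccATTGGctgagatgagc
FDPS shows 3 CCAAT matches in its stretch, MSMO1 4, and EBP, HMGCS1 and SCD 2 each. INSIG1 carries 1 CCAAT and 1 CACGTG, while neither INSIG2 window holds any of the 3 motifs. SREBF2, known to respond to its own product, has the only TCACNCCAC match among the 29.

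CCAAT was found in 23 of the 29 genes (79.3%), and in 39.7% of the 27305 genes with a window. By branch it was in 13 of 14 sterol enzymes (92.9%), 7 of 9 fatty acid enzymes (77.8%) and 3 of 6 regulators (50%). CACGTG was in 5 of 29 (17.2%) against 8.77% of all genes, and TCACNCCAC in 1 of 29 (3.45%) against 1.39%. Genes called under PP242 and genes not called both held CCAAT often, 12 of 14 (85.7%) and 11 of 15 (73.3%). A match describes the letters of the window and not a bound site.

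Sterol synthesis starts from acetyl-CoA, and its first steps held the gene with the largest fall among the 32 on polysomes. ACAT2, the cytosolic thiolase that joins acetyl-CoA units, is read by 1 probe set. ACAT2 stood at 10.53, 10.36, 10.13 and 10.10 on the 4 polysome vehicle arrays and at 8.77, 8.70, 8.48 and 8.71 on the 4 polysome PP242 arrays. The highest PP242 value lay 1.33 below the lowest vehicle value, and ACAT2 fell by 1.61 ± 0.13 (adjusted p = 1.61e-07), a 3.06-fold decrease. Its cytosolic values were 9.36, 9.42, 9.13 and 9.21 with vehicle and 8.27, 7.95, 7.71 and 8.14 with PP242, again without overlap, and it fell by 1.26 ± 0.13 (adjusted p = 2.99e-06). Leaving out 1 number at a time gave adjusted p from 4.08e-06 to 7.39e-05 on polysomes and 3.44e-05 to 6.44e-04 in the cytosol.

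HMGCS1, which makes HMG-CoA, fell by 0.56 in both pools. HMGCS1 stood at 6.10, 6.47, 6.11 and 6.15 on the 4 polysome vehicle arrays and at 5.71, 5.85, 5.68 and 5.35 on the 4 polysome PP242 arrays. The highest PP242 value lay below the lowest vehicle value, and HMGCS1 fell by 0.56 ± 0.13 (adjusted p = 0.0062). In the cytosol it stood at 7.22, 7.25, 7.10 and 7.13 with vehicle and 6.54, 6.83, 6.72 and 6.36 with PP242, groups that did not overlap either, and it fell by 0.56 ± 0.13 (adjusted p = 0.00564). The cytosolic call was lost without replicate 1 (adjusted p = 0.0574). Its second probe set gave -0.47 on polysomes and 0.03 in the cytosol, neither called. The 3 enzymes that phosphorylate and decarboxylate mevalonate were not called in either pool. MVK, mevalonate kinase, measured -0.20 ± 0.11 (adjusted p = 0.271) on polysomes and -0.20 ± 0.11 (adjusted p = 0.219) in the cytosol. PMVK, the next kinase, measured 0.07 ± 0.18 (adjusted p = 0.878) and 0.34 ± 0.18 (adjusted p = 0.228). MVD, the decarboxylase, measured -0.24 ± 0.17 (adjusted p = 0.474) and 0.25 ± 0.17 (adjusted p = 0.367). Values of these 3 overlapped between treatments in both pools, apart from MVK in the cytosol, where all 4 PP242 arrays (7.74 to 8.06) lay below vehicle (8.07 to 8.16).

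IDI1 and FDPS, which turn isopentenyl diphosphate into the prenyl chains for sterols and for protein prenylation, fell in both pools. IDI1 stood at 9.04, 9.01, 9.03 and 8.87 on the 4 polysome vehicle arrays and at 8.06, 8.07, 7.88 and 8.04 on the 4 polysome PP242 arrays. IDI1 fell by 0.97 ± 0.14 (adjusted p = 8.38e-05) on polysomes, a 1.97-fold decrease with no overlap. In the cytosol its values were 8.73, 8.74, 8.91 and 8.90 with vehicle and 7.83, 8.43, 7.85 and 8.48 with PP242. The PP242 arrays split there, with numbers 1 and 3 lower than 2 and 4 and all below vehicle, and IDI1 fell by 0.67 ± 0.14 (adjusted p = 0.00251). IDI1 is read by 4 probe sets that did not move as one. The probe set used and the next brightest fell on polysomes (-0.97 ± 0.14 and -1.08 ± 0.15), and the other two rose (0.44 ± 0.12 and 0.68 ± 0.19). Averaged over its probe sets IDI1 was called in neither pool (-0.24 on polysomes, adjusted p = 0.194, and -0.07 in the cytosol, adjusted p = 0.686). The probe set used is of the class that may also bind related transcripts. FDPS stood at 11.37, 11.48, 11.35 and 11.32 on the 4 polysome vehicle arrays and at 10.59, 10.57, 10.62 and 10.58 on the 4 polysome PP242 arrays. FDPS, farnesyl diphosphate synthase, the target of the bisphosphonate drugs, thus spanned 0.16 with vehicle and 0.05 with PP242, and fell by 0.79 ± 0.11 (adjusted p = 6.98e-05). Cytosolic FDPS stood at 9.73, 9.72, 9.74 and 9.81 with vehicle and 9.11, 9.20, 8.90 and 9.51 with PP242, no overlap, and fell by 0.57 ± 0.11 (adjusted p = 0.00152). Without any 1 number the adjusted p of FDPS ran from 4.94e-04 to 0.00498 on polysomes and from 0.00266 to 0.025 in the cytosol.

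Beyond squalene, 4 of 9 measured enzymes fell on polysomes (6.55% of all genes) and 3 of 9 in the cytosol (7.91%). LSS, which folds oxidosqualene into lanosterol, showed the smallest fall of the 4. LSS stood at 9.93, 10.21, 10.04 and 9.90 on the 4 polysome vehicle arrays and at 9.72, 9.68, 9.62 and 9.48 on the 4 polysome PP242 arrays. LSS fell by 0.40 ± 0.11 (adjusted p = 0.017) on polysomes and fell by 0.34 ± 0.11 (adjusted p = 0.0341) in the cytosol, where it stood at 9.65, 9.74, 9.74 and 9.83 with vehicle and 9.38, 9.59, 9.29 and 9.33 with PP242. Groups did not overlap in either pool, but each call was lost without any 1 number, with adjusted p of 0.0518 to 0.105 and 0.058 to 0.204. MSMO1 takes part in removing methyl groups on the path from lanosterol to cholesterol. MSMO1 stood at 8.78, 8.94, 8.32 and 8.71 on the 4 polysome vehicle arrays and at 8.12, 8.11, 8.08 and 8.14 on the 4 polysome PP242 arrays. MSMO1 fell by 0.57 ± 0.18 (adjusted p = 0.0377) on polysomes, with all PP242 values within 0.06 of each other. Cytosolic MSMO1 was at 9.50, 9.40, 9.15 and 9.21 with vehicle and 9.13, 8.80, 8.88 and 8.08 with PP242, with number 4 far below the rest of its group, and fell by 0.59 ± 0.18 (adjusted p = 0.0281). Its polysome call was lost without replicate 1 (adjusted p = 0.131) or 2 (0.243), and after quantile normalization across all arrays (0.11) or cyclic loess (0.0824). Its cytosolic call was lost without replicate 2 (0.137) or 4 (0.163), and without cytosolic PP242 arrays 2 and 4 it measured -0.31 (adjusted p = 0.266).

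EBP, the sterol isomerase, and DHCR7, the last enzyme of cholesterol synthesis, had deeper falls on polysomes. EBP stood at 10.93, 10.98, 11.11 and 11.15 on the 4 polysome vehicle arrays and at 10.26, 10.12, 10.44 and 10.20 on the 4 polysome PP242 arrays. EBP fell by 0.79 ± 0.15 (adjusted p = 0.00153) there, a 1.73-fold decrease without overlap. Cytosolic EBP, at 9.27, 9.35, 9.63 and 9.77 with vehicle and 8.81, 9.30, 8.98 and 9.61 with PP242, overlapped between treatments and measured -0.33 ± 0.15 (adjusted p = 0.157). Without cytosolic PP242 arrays 2 and 4 it measured -0.61 ± 0.14 (adjusted p = 0.00952) and was called there too. Of the 4 EBP probe sets 3 fell on polysomes, by 0.79, 1.04 and 0.99, and the dimmest measured -0.03. In the cytosol the same 4 measured -0.33, -0.55, -0.51 and -0.00, of which the second was called (adjusted p = 0.0114 over all probe sets), and the mean over them was called too (-0.35, adjusted p = 0.0214). DHCR7 stood at 8.97, 9.29, 9.31 and 9.27 on the 4 polysome vehicle arrays and at 8.30, 8.43, 8.21 and 8.29 on the 4 polysome PP242 arrays. DHCR7 fell by 0.90 ± 0.15 (adjusted p = 3.42e-04) on polysomes without overlap. Its cytosolic values, 8.52, 8.82, 8.77 and 8.98 with vehicle and 8.11, 8.42, 7.97 and 8.73 with PP242, overlapped at number 4 and fell by 0.47 ± 0.15 (adjusted p = 0.0397). Without cytosolic PP242 arrays 2 and 4 it measured -0.73 ± 0.14 (adjusted p = 0.002). The cytosolic call of DHCR7 was lost without replicate 1 (0.0812), 2 (0.152) or 3 (0.165). The polysome call of DHCR7 held in all 16 alternatives, with values from -1.04 to -0.62. Adjusted over all probe sets, its second probe set (-0.62) missed the threshold on polysomes (adjusted p = 0.0537).

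The other post-squalene enzymes were not called in either pool. SQLE, squalene epoxidase, a rate-limiting step, measured -0.21 ± 0.15 (adjusted p = 0.483) on polysomes and -0.24 ± 0.15 (adjusted p = 0.312) in the cytosol. Its second probe set rose in the cytosol by 0.47 ± 0.15 (adjusted p = 0.0452 over all probe sets), so the probe sets of SQLE disagree in sign. NSDHL, a sterol dehydrogenase, measured -0.26 ± 0.13 (adjusted p = 0.238) on polysomes, where its groups did not overlap (9.19 to 9.32 with vehicle, 8.87 to 9.04 with PP242), and 0.02 ± 0.13 (adjusted p = 0.944) in the cytosol. The second NSDHL probe set fell on polysomes by 0.62 ± 0.16 (adjusted p = 0.0171) and measured -0.11 in the cytosol. HSD17B7, a ketoreductase, measured -0.01 ± 0.12 and -0.09 ± 0.12, and SC5D, a desaturase, 0.15 ± 0.15 and 0.22 ± 0.15. TM7SF2, a sterol reductase, measured 0.06 ± 0.23 (adjusted p = 0.935) on polysomes and 0.62 ± 0.23 (adjusted p = 0.0778) in the cytosol. With the replicate number as a block the cytosolic value of TM7SF2 was called higher (adjusted p = 0.0179). Its cytosolic PP242 arrays stood at 8.18, 8.74, 8.01 and 8.68, and the vehicle arrays ran from 7.44 to 8.16 with numbers 1 and 2 above 3 and 4.

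**Figure D2:**
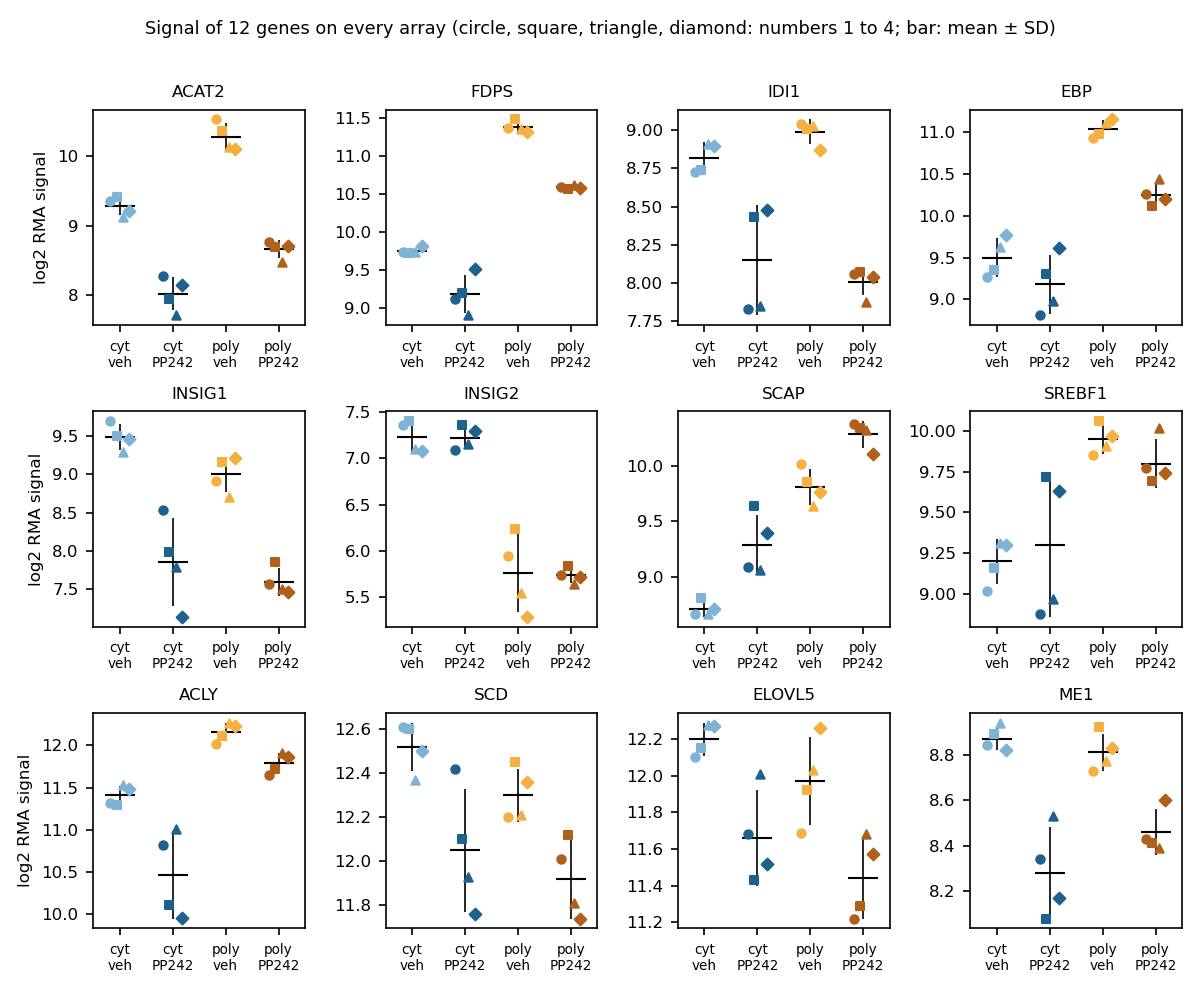
Log2 RMA signal of 12 of the genes on every array, in the 4 groups (cyt, cytosolic; poly, polysome; veh, vehicle), with marker shapes for replicate numbers 1 to 4 and bars for mean ± SD of 4 arrays; each panel has its own axis. ACAT2, FDPS and INSIG1 separate by treatment in both pools, EBP on polysomes but not in the cytosol, and INSIG2 overlaps between treatments in both pools.

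Of the INSIG pair INSIG1 fell in both pools and INSIG2 was called in neither. INSIG1, the sterol-regulated retention factor, had the largest fall among the 32 in the cytosol and the second largest on polysomes. INSIG1 stood at 8.91, 9.16, 8.71 and 9.21 on the 4 polysome vehicle arrays and at 7.56, 7.85, 7.50 and 7.46 on the 4 polysome PP242 arrays. PP242 values lay at least 0.86 below the vehicle range, and INSIG1 fell by 1.41 ± 0.21 (adjusted p = 1.18e-04), a 2.65-fold decrease. In the cytosol it stood at 9.70, 9.51, 9.29 and 9.46 with vehicle and 8.53, 7.98, 7.78 and 7.13 with PP242, no overlap, with number 4 lowest, and it fell by 1.64 ± 0.21 (adjusted p = 2.19e-05), a 3.11-fold decrease. All 3 INSIG1 probe sets fell in both pools, by 1.41, 0.96 and 1.35 on polysomes and by 1.64, 0.67 and 1.16 in the cytosol. INSIG2 is the paralog that depends less on SREBP. INSIG2 stood at 5.95, 6.24, 5.55 and 5.29 on the 4 polysome vehicle arrays and at 5.74, 5.84, 5.65 and 5.72 on the 4 polysome PP242 arrays. The PP242 values fell inside the vehicle range, at -0.02 ± 0.16 (adjusted p = 0.968). Cytosolic INSIG2 was at 7.36, 7.40, 7.10 and 7.08 with vehicle and 7.09, 7.36, 7.15 and 7.29 with PP242 and measured -0.01 ± 0.16 (adjusted p = 0.968). The difference between the paralogs themselves was not tested, since they are read by different probe sets.

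SCAP, the escort of the SREBP precursors, was the only one of the 32 that rose. SCAP stood at 10.01, 9.85, 9.64 and 9.76 on the 4 polysome vehicle arrays and at 10.37, 10.34, 10.32 and 10.10 on the 4 polysome PP242 arrays. All PP242 arrays lay above vehicle, and SCAP rose by 0.47 ± 0.13 (adjusted p = 0.0198), a 1.38-fold increase. Cytosolic SCAP stood at 8.67, 8.81, 8.67 and 8.71 with vehicle and 9.09, 9.64, 9.06 and 9.39 with PP242, again without overlap, with numbers 2 and 4 highest, and it rose by 0.58 ± 0.13 (adjusted p = 0.00419). The polysome call was lost without any 1 number (0.059 to 0.118) and the cytosolic call without replicate 2 (0.0502). Without cytosolic PP242 arrays 2 and 4 SCAP measured 0.36 ± 0.12 (adjusted p = 0.0644).

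The transcription factor genes themselves did not pass. SREBF1 stood at 9.85, 10.06, 9.91 and 9.97 on the 4 polysome vehicle arrays and at 9.77, 9.69, 10.02 and 9.74 on the 4 polysome PP242 arrays. SREBF1, whose product favours fatty acid genes, measured -0.14 ± 0.16 (adjusted p = 0.696) on polysomes. Its cytosolic values, 9.02, 9.16, 9.31 and 9.30 with vehicle and 8.88, 9.72, 8.97 and 9.63 with PP242, split within the PP242 group, where numbers 2 and 4 lay above and numbers 1 and 3 below the vehicle values, at 0.10 ± 0.16 (adjusted p = 0.716). SREBF2 stood at 7.23, 7.47, 7.20 and 7.42 on the 4 polysome vehicle arrays and at 7.16, 7.27, 7.05 and 7.19 on the 4 polysome PP242 arrays. SREBF2, whose product favours sterol genes, measured -0.16 ± 0.14 (adjusted p = 0.56). In the cytosol it stood at 7.29, 7.32, 7.27 and 7.34 with vehicle and 7.25, 7.63, 6.99 and 7.71 with PP242, with the same split by number, and measured 0.09 ± 0.14 (adjusted p = 0.704). STARD4, a sterol carrier that SREBP-2 regulates, lay between 2.59 and 2.97 on all 16 arrays, where 8.3% of genes had a lower mean. It measured -0.01 ± 0.09 on polysomes and -0.02 ± 0.09 in the cytosol, and a change in it may not be detectable at that signal.

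In the fatty acid branch 3 of 10 genes fell on polysomes (6.55% of all genes) and 4 of 10 in the cytosol (7.91%). ELOVL5 and ME1 were in both counts. ACLY, which cleaves citrate to cytosolic acetyl-CoA for both branches, fell by 0.93 ± 0.18 (adjusted p = 0.00105) in the cytosol. There it stood at 11.32, 11.30, 11.53 and 11.48 with vehicle and 10.82, 10.11, 11.01 and 9.96 with PP242, without overlap, numbers 2 and 4 being lowest. Without those PP242 arrays ACLY fell by 0.49 ± 0.11 (adjusted p = 0.00812). ACLY stood at 12.02, 12.11, 12.27 and 12.23 on the 4 polysome vehicle arrays and at 11.65, 11.72, 11.91 and 11.86 on the 4 polysome PP242 arrays. Those groups did not overlap, but at -0.37 ± 0.18 (adjusted p = 0.2) ACLY was not called. The other 2 ACLY probe sets gave the reverse picture, falling on polysomes (-0.70 ± 0.17 and -0.50 ± 0.15) and measuring -0.17 and -0.06 in the cytosol. ACLY's pools therefore depended on the probe set. ACSS2, which makes acetyl-CoA from acetate, measured -0.00 ± 0.11 on polysomes and 0.09 ± 0.11 in the cytosol. ME1, malic enzyme, a source of the NADPH that both branches consume, fell in both pools. ME1 stood at 8.73, 8.92, 8.77 and 8.83 on the 4 polysome vehicle arrays and at 8.43, 8.41, 8.39 and 8.60 on the 4 polysome PP242 arrays. ME1 fell by 0.35 ± 0.11 (adjusted p = 0.0388) there, with no overlap, a call lost without any 1 number (0.0839 to 0.213), after quantile normalization (0.175) and after cyclic loess (0.128). Cytosolic ME1, at 8.84, 8.89, 8.94 and 8.82 with vehicle and 8.34, 8.08, 8.53 and 8.17 with PP242, fell by 0.59 ± 0.11 (adjusted p = 9.66e-04) and kept its call without any 1 number (0.00199 to 0.0268).

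The carboxylases and the synthase that build palmitate were not called. ACACA stood at 10.39, 10.69, 10.85 and 10.81 on the 4 polysome vehicle arrays and at 10.38, 10.63, 10.56 and 10.33 on the 4 polysome PP242 arrays. ACACA, the cytosolic acetyl-CoA carboxylase, measured -0.21 ± 0.12 (adjusted p = 0.348), with overlapping groups. In the cytosol it stood at 9.91, 10.00, 10.23 and 10.22 with vehicle and 9.61, 9.96, 9.75 and 9.77 with PP242 and measured -0.32 ± 0.12 (adjusted p = 0.0916); with the replicate number as a block this was called lower (adjusted p = 0.0251). ACACB stood at 6.33, 6.47, 6.56 and 6.74 on the 4 polysome vehicle arrays and at 6.57, 6.82, 6.55 and 6.67 on the 4 polysome PP242 arrays. ACACB, the mitochondrial-surface paralog whose malonyl-CoA restrains fatty acid oxidation, measured 0.13 ± 0.16 (adjusted p = 0.74) on polysomes. Its cytosolic values, 6.98, 6.97, 6.69 and 6.54 with vehicle and 6.89, 6.40, 6.97 and 6.15 with PP242, overlapped, at -0.19 ± 0.16 (adjusted p = 0.465). FASN, fatty acid synthase, lay at 8.72 to 8.99 with vehicle and 8.28 to 8.62 with PP242 on polysomes, with no overlap and -0.36 ± 0.18 (adjusted p = 0.237). In the cytosol FASN overlapped at -0.28 ± 0.18 (adjusted p = 0.325).

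Among the desaturases and elongases, ELOVL5 fell in both pools. ELOVL5 extends polyunsaturated chains. ELOVL5 stood at 11.69, 11.92, 12.03 and 12.26 on the 4 polysome vehicle arrays and at 11.22, 11.29, 11.68 and 11.57 on the 4 polysome PP242 arrays. The highest PP242 array lay 0.01 below the lowest vehicle array, and ELOVL5 fell by 0.54 ± 0.14 (adjusted p = 0.0147). With PP242, numbers 3 and 4 were above 1 and 2, as they were with vehicle. Cytosolic ELOVL5, at 12.10, 12.15, 12.28 and 12.27 with vehicle and 11.68, 11.43, 12.01 and 11.52 with PP242, fell by 0.54 ± 0.14 (adjusted p = 0.0125). Both calls were lost without replicate 2 (adjusted p = 0.1 on polysomes and 0.115 in the cytosol) or 4 (0.0837 and 0.101). The second ELOVL5 probe set measured 0.01 on polysomes and 0.27 in the cytosol, and quantile normalization (0.0872) or cyclic loess (0.117) ended the polysome call. In the cytosol ELOVL5 was not called after cyclic loess (-0.47, adjusted p = 0.0523) or without PP242 arrays 2 and 4 (-0.35, adjusted p = 0.195). ELOVL6, which extends palmitate to stearate, did not pass in either pool, at 0.30 ± 0.12 (adjusted p = 0.122) on polysomes, where all 4 PP242 arrays (5.58 to 5.90) lay above vehicle (5.19 to 5.56), and -0.18 ± 0.12 (adjusted p = 0.346) in the cytosol.

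SCD, the desaturase that makes oleate, was called in the cytosol. It stood there at 12.61, 12.60, 12.37 and 12.50 with vehicle and 12.42, 12.10, 11.93 and 11.76 with PP242, groups that overlapped at PP242 number 1, and fell by 0.47 ± 0.13 (adjusted p = 0.0165). Without replicate 2 (0.0973) or 4 (0.137), or without cytosolic PP242 arrays 2 and 4 (-0.34, adjusted p = 0.15), that call was lost. SCD stood at 12.20, 12.45, 12.21 and 12.36 on the 4 polysome vehicle arrays and at 12.01, 12.12, 11.81 and 11.74 on the 4 polysome PP242 arrays. These did not overlap, and at -0.39 ± 0.13 (adjusted p = 0.054) SCD missed the threshold on polysomes, while with the replicate number as a block it was called lower (adjusted p = 0.0108). FADS2, the delta-6 desaturase of polyunsaturated chains, was called on polysomes. FADS2 stood at 6.92, 6.71, 6.81 and 6.69 on the 4 polysome vehicle arrays and at 6.48, 6.06, 6.33 and 6.32 on the 4 polysome PP242 arrays. FADS2 fell by 0.48 ± 0.12 (adjusted p = 0.00841) without overlap, a call lost without replicate 3 (0.0565). In the cytosol it stood at 7.18, 7.24, 7.29 and 7.35 with vehicle and 7.13, 7.52, 7.20 and 7.14 with PP242, overlapping, and measured -0.02 ± 0.12 (adjusted p = 0.939).

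Set side by side, both enzyme branches had medians below that of all genes. On polysomes 8 of 16 sterol enzymes fell, with a median of -0.33, and 3 of 10 fatty acid enzymes, with a median of -0.36, where 6.55% of all genes fell and their median was -0.01. After quantile normalization, and also after cyclic loess, 7 of 16 sterol enzymes but only 1 of 10 fatty acid enzymes (10%) fell there. Called in either direction were then 10% of the fatty acid enzymes, beside 11.5% and 14.1% of all genes. Of the 19777 genes 1055 and 1206 fell, and 1 gene of 10 is too few to set against those shares. In the cytosol 7 of 16 sterol enzymes fell (median -0.29) and 4 of 10 fatty acid enzymes (median -0.30), where 7.91% of all genes fell and their median was 0.04. Among the 6 regulators and transport proteins 1 fell and 1 rose in each pool, with medians of -0.08 and 0.04. On polysomes fatty acid enzymes ranged from -0.54 to 0.30 and sterol enzymes from -1.61 to 0.15. In the cytosol ACLY, at -0.93, was lower than every sterol enzyme but ACAT2. This rank did not hold without cytosolic PP242 arrays 2 and 4. ACLY then measured -0.49, above ACAT2 (-1.29), IDI1 (-0.98), FDPS (-0.74), DHCR7 (-0.73), EBP (-0.61) and HMGCS1 (-0.55). The other ACLY probe sets measured -0.17 and -0.06 over all arrays. The difference between branches was not tested, because the genes were listed with results of these data known.

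A mean over each branch was taken on each array. The SDs given describe the PP242 arrays and leave out the spread of the vehicle arrays. On polysomes the vehicle arrays had an SD of 0.09 for sterol enzymes and 0.08 for fatty acid enzymes. Relative to the vehicle mean of the same pool, the 16 sterol enzymes averaged -0.41, -0.43, -0.48 and -0.49 on the polysome PP242 arrays, a mean of -0.45 (SD 0.04, n = 4). On the cytosolic PP242 arrays they averaged -0.32, -0.09, -0.42 and -0.14, a mean of -0.24 (SD 0.16, n = 4). Numbers 2 and 4 of the cytosolic group, the arrays with the lowest weights, thus showed the smaller sterol shift. The 10 fatty acid enzymes averaged -0.26, -0.21, -0.20 and -0.24 on polysomes (mean -0.23, SD 0.03) and -0.33, -0.36, -0.23 and -0.45 in the cytosol (mean -0.34, SD 0.09). For them numbers 2 and 4 were the lower arrays of the cytosolic group. All genes averaged 0.00 (SD 0.02) on the polysome PP242 arrays and 0.02 (SD 0.04) on the cytosolic ones.

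**Figure D3:**
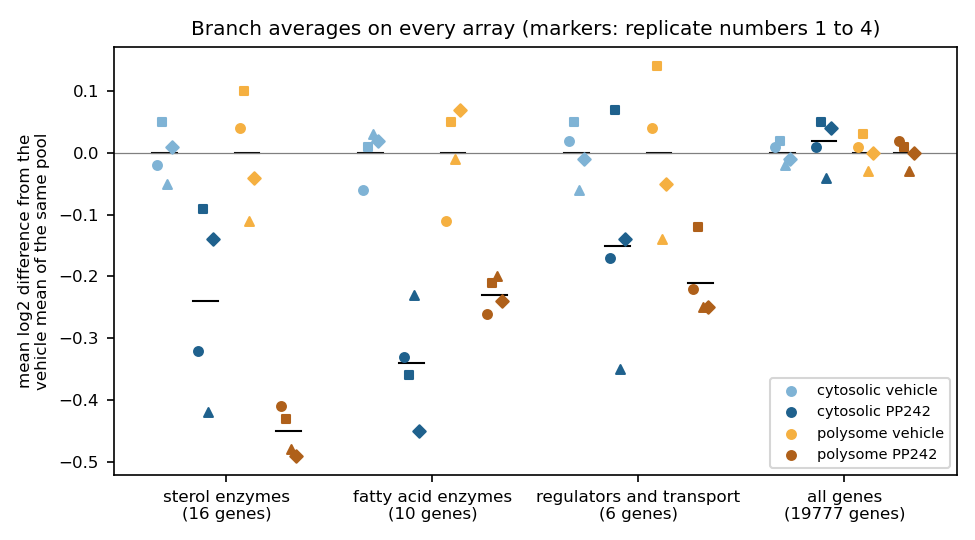
Mean log2 difference of each branch from the vehicle mean of the same pool, for every array, with marker shapes for replicate numbers 1 to 4 and a bar for the mean of each group of 4. Polysome PP242 arrays sit together at -0.49 to -0.41 for sterol enzymes and -0.26 to -0.20 for fatty acid enzymes, and cytosolic PP242 arrays spread from -0.42 to -0.09 for sterol enzymes; means over all genes lie close to 0.

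Whether PP242 changed the share of a transcript found on polysomes was asked with the difference of the polysome and the cytosolic effect. None of the 32 genes was called, and neither was any of the 19777 genes (0%, limma). At an unadjusted p under 0.05 there were 4 of the 32 and 1750 of all genes (8.85%), both without the block. With the replicate number as a block 2942 of all genes (14.9%) passed, a share that cannot be set beside the 4 counted without it. The 4 were ACLY at 0.56 ± 0.25 (unadjusted p = 0.0363), ELOVL6 at 0.47 ± 0.17 (0.0119), FADS2 at -0.47 ± 0.17 (0.0114) and EBP at -0.46 ± 0.22 (0.0499), all with an adjusted p of 0.558. The median of the sterol enzymes was -0.24 and that of the fatty acid enzymes 0.10, beside -0.04 for all genes. Without cytosolic PP242 arrays 2 and 4 these medians were -0.03 and 0.04, and the gap between the branches was not seen. The SE of this difference was 0.13 to 0.33 for the 32 genes, and a shift in polysome association of that size would not have been detectable. Larger shifts could go uncalled as well, as those of ACLY, ELOVL6 and FADS2 did.

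In vehicle-treated cells the transcripts differed in how they divided between pools. This comparison depends on scaling. The array medians were 6.02 to 6.12 in cytosolic and 5.67 to 5.81 in polysome RNA, and no label says whether both pools were scaled together. With the values as deposited 14 of the 32 were higher in polysome RNA and 5 lower, 59.4% beside 52.7% of all genes (16.8% higher, 35.9% lower). A block for replicate number called 20 of the 32, beside 59.2% of all genes (19.5% higher, 39.7% lower), and in numbers 1 and 2 alone 20 were, beside 46.4% of all genes. In numbers 3 and 4 alone 12 were, beside 32.5%. The split over all genes was 3329 higher and 7103 lower, with a median of -0.16. It became 4740 and 4024 (median 0.03) after quantile normalization over all arrays, 4775 and 4283 (0.02) after cyclic loess, and 8492 and 2456 (0.25) after median scaling. The call held under all 4 scalings for 8 higher and 3 lower genes of the 32. How many of all genes kept a call under all 4 was not counted, so no share can be set beside these.

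Higher on polysomes under all 4 scalings were ACAT2, PMVK, FDPS, NSDHL and EBP of the sterol branch, the regulators SREBF1 and SCAP, and FASN. FDPS had a mean of 9.75 (SD 0.04) in cytosolic and 11.38 (SD 0.07) in polysome vehicle, a difference of 1.63 ± 0.11 (adjusted p = 6.69e-09). EBP differed by 1.54 ± 0.15 (adjusted p = 3.19e-07), PMVK by 1.38 ± 0.18 (adjusted p = 6.01e-06), NSDHL by 1.23 ± 0.13 (adjusted p = 5.82e-07), SCAP by 1.10 ± 0.13 (adjusted p = 1.76e-06) and ACAT2 by 1.00 ± 0.13 (adjusted p = 7.63e-06). SREBF1 differed by 0.75 ± 0.16 (adjusted p = 7.97e-04) and FASN by 0.55 ± 0.18 (adjusted p = 0.0155). FASN lost its call without replicate 1 (0.0596) or 2 (0.12) and with numbers 3 and 4 alone (0.436), where SREBF1 missed it too (0.0503), and the second probe set of SREBF1 was lower on polysomes (-0.61 ± 0.12), with 0.07 (adjusted p = 0.66) for the mean of its probe sets. The second probe set of NSDHL was not called (0.29, adjusted p = 0.142). The other EBP probe sets, from brightest to dimmest, measured 1.08, 0.01 and -0.01. Lower on polysomes were HMGCS1 at -0.97 ± 0.13 (adjusted p = 7.83e-06), INSIG2 at -1.48 ± 0.16 (adjusted p = 7.05e-07) and ACSS2 at -0.77 ± 0.11 (adjusted p = 1.93e-05). INSIG2 stood at 7.36, 7.40, 7.10 and 7.08 in cytosolic and 5.95, 6.24, 5.55 and 5.29 in polysome vehicle, without overlap, a 2.78-fold lower signal. The second probe set of HMGCS1 measured -0.05 (adjusted p = 0.803). INSIG1 was not called at -0.49 ± 0.21 (adjusted p = 0.0548), and with the replicate number as a block it was called lower (adjusted p = 0.0254). SQLE, LSS and DHCR7 were called higher as deposited and lost the call under quantile normalization, and each also lost it without some 1 number, with adjusted p up to 0.0965, 0.168 and 0.087. The vehicle arrays used here are also those of the PP242 effects, so the comparisons are not independent.

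**Figure D4:**
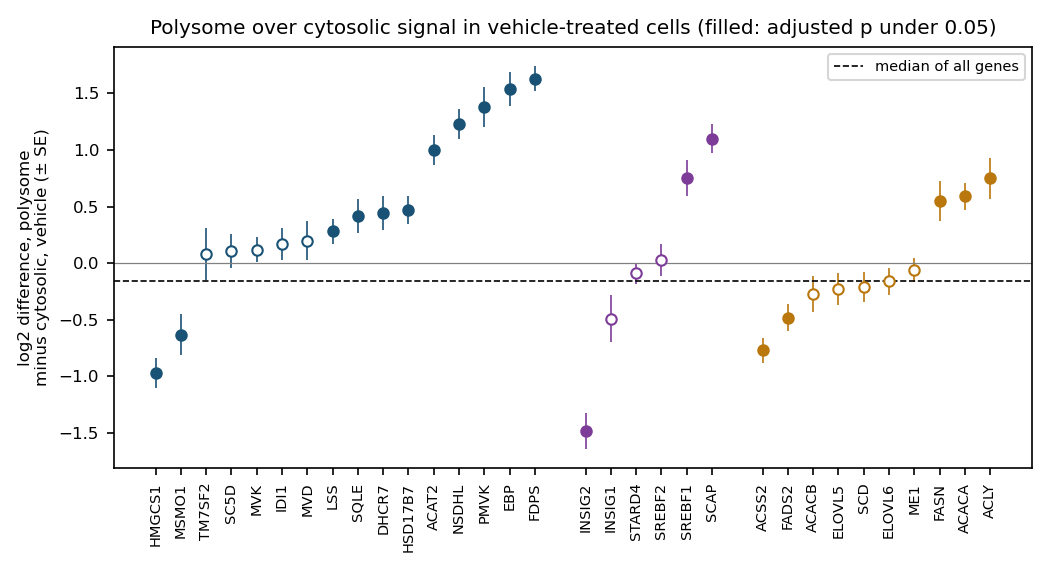
Polysome minus cytosolic log2 signal in vehicle-treated cells for the 32 genes, sorted within sterol enzymes (blue), regulators and transport (purple) and fatty acid enzymes (brown), with bars for the SE and filled marks for an adjusted p under 0.05. The dashed line is the median of all genes, -0.16; FDPS and EBP are farthest above it and INSIG2 farthest below.

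Genes read by several probe sets let each result be looked at more than once. Of the 32 genes 21 had more than 1 probe set, 76 in all. On polysomes INSIG1 (3 of 3), EBP (3 of 4), ACLY (2 of 3) and, in part, IDI1 (2 of 4) fell in more than 1 probe set. ACLY, NSDHL and MVK fell only in probe sets other than the one that stands for the gene: for MVK the second measured -0.41 ± 0.11 (adjusted p = 0.0183). All 4 probe sets of SCD measured between -0.55 and -0.39, none of them called. ACACB with 7 probe sets lay between -0.04 and 0.32. ME1 fell by 1.35 ± 0.19 in the cytosol in its second probe set. Probe sets of 1 gene can sit in different 3′ ends, and which transcripts they read was not tested.

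**Figure D5:**
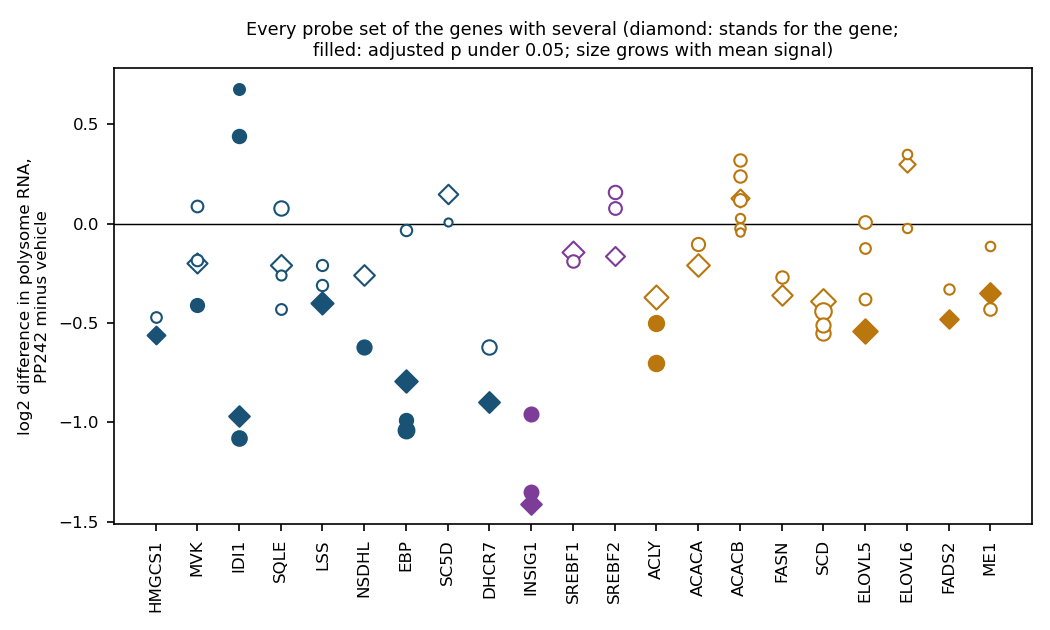
PP242 minus vehicle in polysome RNA (log2) for every probe set of the 21 genes with more than 1, in blue for sterol enzymes, purple for regulators and brown for fatty acid enzymes; diamonds stand for the gene, filled marks have an adjusted p under 0.05 over all probe sets, and larger marks are brighter. The 3 INSIG1 marks are all filled, at -0.96 or lower, IDI1 has filled marks on both sides of 0, and the 4 SCD marks are open between -0.55 and -0.39.

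Around the 36 genes, other lists of the pathway were counted in the same fit, in which 13.4% of all genes were called on polysomes and 16.4% in the cytosol. Over the brighter genes alone the polysome share was 26.6%. Of 8 measured genes listed around SREBP processing 1 rose and 1 fell on polysomes, and 2 rose and 1 fell in the cytosol. These were 25% and 37.5% called, a count over the list and not over established processing factors. MBTPS1, the site-1 protease, rose by 0.43 ± 0.14 on polysomes and 0.67 ± 0.14 in the cytosol, and TMEM97, a sterol-responsive membrane protein, fell by 0.56 ± 0.11 and 0.42 ± 0.11. UBXN8, also on that list, rose by 0.42 ± 0.12 in the cytosol, and a part of it in SREBP processing was not tested. None of 6 genes that link mTOR to SREBP, such as LPIN1 and CRTC2, was called in either pool (unadjusted p under 0.05 for 0 of 6 in both). The isoprenoid side branch had 3 of 12 lower on polysomes and 4 of 12 in the cytosol (25% and 33.3%). PDSS1 and PDSS2, which build the side chain of coenzyme Q, fell by 0.84 ± 0.13 and 0.82 ± 0.12 on polysomes, and COQ2, which attaches it, by 0.69 ± 0.11. In the cytosol they fell by 0.81 ± 0.13, 0.69 ± 0.12 and 0.58 ± 0.11.

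Citrate and NADPH supply fell throughout on polysomes, 4 of 4 measured genes with a median of -0.69, and 1 of 4 in the cytosol with a median of -0.28. SLC25A1, the mitochondrial citrate exporter, fell by 0.74 ± 0.13 on polysomes and measured -0.34 ± 0.13 in the cytosol. IDH1, the cytosolic NADPH-making isocitrate dehydrogenase, fell by 1.20 ± 0.18 and 1.02 ± 0.18. PGD, of the pentose phosphate path, fell by 0.64 ± 0.16 on polysomes and measured -0.21 ± 0.16 in the cytosol. The fourth was CS, citrate synthase, which fell on polysomes by 0.45 ± 0.13 and was named after its value was seen. Fatty acid activation and elongation had 5 of 13 lower and 1 higher on polysomes, and 4 lower and 1 higher in the cytosol, 46.2% and 38.5% called beside 13.4% and 16.4% of all genes. SCD5, the second human stearoyl desaturase, measured -1.19 ± 0.18 on polysomes and -1.36 ± 0.18 in the cytosol, while ELOVL7, an elongase of saturated chains, rose by 0.72 ± 0.12 and 0.65 ± 0.12. TECR, the last reductase of the elongation cycle, fell by 0.94 ± 0.15 on polysomes and measured -0.22 ± 0.15 in the cytosol.

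Lists for the use of lipid came next, to be read beside the same 13.4% and 16.4% of all genes. Of 14 glycerolipid genes 2 fell on polysomes, CHKA, choline kinase, by 0.64 ± 0.12 and LPCAT3, which remodels phospholipids, by 0.76 ± 0.16. In the cytosol 1 of the 14 fell and 1 rose, AGPAT2, which makes phosphatidic acid, by 0.61 ± 0.16, so 14.3% were called in each pool, near the share of all genes. Sterol handling had 1 of 11 higher and 1 lower on polysomes, and 1 higher and 2 lower in the cytosol (18.2% and 27.3% called). ABCA1, the cholesterol exporter, rose by 0.62 ± 0.14 on polysomes and NPC1, of lysosomal cholesterol export, by 0.69 ± 0.12 in the cytosol. LBR, a nuclear membrane sterol reductase, measured -0.73 ± 0.24 on polysomes and -1.24 ± 0.24 in the cytosol, both called. In fatty acid oxidation 1 of 17 rose and 1 fell on polysomes (median 0.04), and 1 rose and 2 fell in the cytosol (median 0.02), and at 11.8% and 17.6% called this list was near the share of all genes. ACADVL, the very-long-chain acyl-CoA dehydrogenase, rose by 0.48 ± 0.14 and 0.89 ± 0.14, ETFA, an electron carrier of this path, fell by 0.58 ± 0.15 and 0.59 ± 0.15, and ACADM fell by 1.07 ± 0.25 in the cytosol.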

How the data were processed

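The series holds 16 Affymetrix 3′ expression arrays of MIA PaCa-2 cells, 4 in each of 4 groups. The authors' deposited values are log2 signals for 54613 probe sets, summarised by RMA per the submitters' processing notes. For the RMA version, its settings and whether both pools were normalized in 1 run, the sources used here say nothing. The gene table for the array gives 1 gene for 41091 probe sets, several for 1801, and lists no gene for 11721. For 10523 genes with more than 1 probe set the one with the highest mean stands for the gene, which left 19777 genes. Array number, not read depth, limits the precision.

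limma 3.58.1 in R 4.3.3 fitted 1 mean per group over all 16 arrays with lmFit, followed by eBayes (trend = TRUE). Tests are two-sided, Benjamini-Hochberg adjustment ran over all genes, and a gene is called at an adjusted p under 0.05. A value after ± is the contrast's standard error, except where SD is written. Contrasts were PP242 minus vehicle in each pool, the difference of these effects, and polysome minus cytosolic in vehicle. The steps were tested on simulated data.

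The genes and lists were chosen with earlier results of these data known, so no test of a list is given. Named are all 36 listed genes, with values of every array for those called under PP242 and for the INSIG, SREBF and ACAC pairs, and up to 3 called genes with the smallest p of each other list. Deviations from the group mean correlated above 0.1 in 16 of 16 pairs of same-numbered arrays from groups compared (0.164 to 0.510). The numbers thus pair samples. The main fit had no block for number, and the block result is printed where it changes a call. Runs with numbers or arrays left out had no block either, so a call lost there was lost in an unpaired fit. There were 17 alternatives: scalings, other probe sets, brighter genes, variance settings, array weights, the block, a fit of only the groups compared, and arrays or numbers left out. Promoter windows are RefSeq's, from GRCh38.p14.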

Additional observations from a re-analysis of the deposited data

Results flagged for a closer look

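In 3 of 128 groups of 4 arrays, 1 array stood apart from the other 3, and chance alone gives about 1 in 20. HMGCS1 on polysome vehicle number 2 was at 6.47, above 6.10 to 6.15 on the other arrays of that group. IDI1 on polysome PP242 number 3 was at 7.88, below 8.04 to 8.07. DHCR7 on polysome vehicle number 1 was at 8.97, below 9.27 to 9.31. The polysome calls of all 3 genes held without the replicate number concerned, with adjusted p of 0.0257 for HMGCS1 without number 2, 0.00146 for IDI1 without number 3 and 0.0023 for DHCR7 without number 1.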

How the results depend on the processing

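A reversal is counted here where the sign changed and the main fit or the alternative called the gene. For PP242 in either pool, such reversals came only with the second probe set. Genes called in neither fit changed sign elsewhere too. Without cytosolic PP242 arrays 2 and 4, for example, PMVK moved from 0.34 to -0.05 and SREBF1 from 0.10 to -0.27. With the second probe set ELOVL5 measured 0.01 on polysomes, and in the cytosol HMGCS1 0.03, SQLE 0.47, SCD 0.12 and ELOVL5 0.27. In the vehicle comparison the second probe set gave INSIG1 0.48, SREBF1 -0.61 and ACACB 0.30, the mean of probe sets gave MVK -0.33 and SQLE -0.06, and median scaling gave STARD4 0.32 and ME1 0.34. The cause of each was not tested. Members called on polysomes numbered 8 with numbers 1 and 2 only and 4 with numbers 3 and 4 only, which hold fewer samples, and 8 to 9 without 1 number (8.22% to 9.55% of all genes). In the cytosol they numbered 3 with numbers 3 and 4 only and 7 to 11 without 1 number (7.8% to 16.8% of all genes), and in the vehicle comparison 12 with numbers 3 and 4 only (32.5% of all genes) and 15 to 20 without 1 number (43.6% to 47.2%). Polysome medians of the fatty acid enzymes moved to -0.27 (quantile), -0.24 (cyclic loess), -0.28 (mean of probe sets) and -0.18 (second probe set). Those of the sterol enzymes moved to -0.27 (mean of probe sets), -0.44 (second probe set) and -0.38 (numbers 1 and 2). Cytosolic medians of the sterol enzymes moved to -0.12 (mean of probe sets), -0.11 (second probe set), -0.20 (numbers 1 and 2) and -0.42 (numbers 3 and 4). Those of the fatty acid enzymes moved to -0.12, 0.01, -0.37 (array weights) and -0.45 (numbers 3 and 4), with -0.41 to -0.29 without 1 number. Association medians of the fatty acid enzymes moved to 0.16 (quantile), 0.16 (cyclic loess), -0.12 (mean of probe sets), -0.17 (second probe set), 0.15 (array weights) and 0.04 without cytosolic PP242 arrays 2 and 4. Vehicle medians of the sterol enzymes moved to 0.25 (quantile), 0.25 (cyclic loess), 0.75 (median scaling) and 0.19 (mean of probe sets). Those of the regulators moved to 0.14, 0.12, 0.37 and -0.07, and to 0.03 over brighter genes, and those of the fatty acid enzymes to 0.22 (median scaling), 0.03 (mean of probe sets) and 0.16 (second probe set). With the mean of probe sets 1 gene of the array, higher, was called for polysome association. The replicate block, beside the calls of SCD, TM7SF2, ACACA and INSIG1 given above, changed no other call of the 32 genes, and 14, 15 and 20 were called with it. The 4 arrays of a group limit precision, and a loss from polysomes shared by all mRNAs would not be visible within a pool.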
